A study of Mus musculus with 16 samples.

Results

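The enzymes that assemble triacylglycerol and membrane phospholipid from glycerol and fatty acids were examined as transcripts in mouse liver, through 10 genes: Gpat3, Gpam, Agpat1, Agpat2, Agpat3, Lpin1, Lpin2, Dgat1, Dgat2 and Mogat1. The genes were taken by name from the gene probes of an expression array, on which Gpat3 carries its older symbol Agpat9. They had 12 of the 55681 gene probes, 2 each for Gpam and Lpin1 and 1 for each of the others, and all 12 passed the filter on dim probes, so that the 10 genes were among 24357 tested. The set was chosen by a measured value, the interaction of Gpat3, that is, the difference of its CCl4 response between the genotypes in these same arrays. Every value of Gpat3 below is therefore a description with no test, whereas the other 9 genes were tested across all probes. These 9 and the further lists below were also chosen with earlier results of these data known, which limits what counts of calls among them can show. By that interaction, taken as the response of Lcn2-/- livers less that of WT livers, Gpat3 stood at rank 3 among 10 genes (0.0411% of those tested) with an adjusted p under 0.05. The last gene inside that limit was Tm4sf20, with an interaction of 2.24 on the log2 scale and an adjusted p of 0.0308, and the first gene outside it was EL606508, with -3.72 and 0.0565.

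The livers came from male BALB/c mice, aged 6 to 8 weeks when treatment began, of which some were wild type (WT) and the others Lcn2-/-. The knockout was made on a mixed 129/Ola and C57BL/6 background and then repeatedly backcrossed to BALB/c. Lcn2 encodes lipocalin 2, a secreted protein of inflammation that binds bacterial siderophores. CCl4, a solvent that hepatocytes turn into a toxic radical, was given in corn oil into the peritoneum at 0.5 ml/kg, 2 times per week for 4 weeks, and the livers were collected 48 h after treatment ended. Controls were given the oil alone. Each replicate, called a liver here, had 1 array, and the WT livers comprised 4 controls and 5 given CCl4, the Lcn2-/- livers 3 controls and 4 given CCl4. The labels number the replicates without saying whether each is a separate mouse, whereas the study counts its CCl4 array samples as mice. The p-values measure the spread between these samples, and for the controls that spread may be technical. In whole liver, fewer cells of a type and less RNA per cell cannot be told apart.

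Glycerolipid synthesis starts when a glycerol-3-phosphate acyltransferase (GPAT) adds a first fatty acid to glycerol-3-phosphate, giving lysophosphatidic acid. An acylglycerol-phosphate acyltransferase (AGPAT) adds the next to make phosphatidic acid, a lipin removes the phosphate to leave diacylglycerol, and a diacylglycerol acyltransferase (DGAT) closes the path with triacylglycerol. Monoacylglycerol acyltransferases (MGAT) reach diacylglycerol by another route, from monoacylglycerol, which is the main route in the intestine and a minor one in the normal liver. Gpat3 encodes a GPAT of the endoplasmic reticulum best known from adipose tissue, and Gpam the mitochondrial GPAT1 of liver.

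The array reads each gene through a probe of 60 bases. The 3′ ends of the probes of the 2 genes on which the genotype difference turned, Gpat3 and Mogat1, are shown. Capitals mark the first match in each to AATAAA, the common polyadenylation hexamer. A further match in the Mogat1 probe, which overlaps the first, is left in lower case. Their probes lie at chr5:101328054-101328113 and chr1:78534677-78534736 of the mm9 build, and whether these bases are exon or UTR was not analysed here.
Gpat3 probe, last 30 bases: tcttactgactatgAATAAAttttatattt
Mogat1 probe, last 30 bases: agaaagcatcgttgagaaAATAAAtaaata
The hexamer was in 4 of the 12 probes (Gpat3, Mogat1, Agpat1 and the brighter Gpam probe), against 10.1% of all 55681 gene probes. Such a match is a description of the letters and no evidence of use.

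Because Gpat3 and Mogat1 had alike patterns over the livers, their promoters are shown too, from 250 bases before to 50 after the gene start, as RefSeq's table for GRCm38.p6 gives them. That table held a promoter for 8 of the 10 genes. Both windows are on the + strand, chr5:100845979-100846278 for Gpat3 and chr1:78510810-78511109 for Mogat1, and capitals mark matches to a searched motif, the GC box GGGCGG in Gpat3 and CCAAT on the opposite strand in Mogat1.
Gpat3 promoter: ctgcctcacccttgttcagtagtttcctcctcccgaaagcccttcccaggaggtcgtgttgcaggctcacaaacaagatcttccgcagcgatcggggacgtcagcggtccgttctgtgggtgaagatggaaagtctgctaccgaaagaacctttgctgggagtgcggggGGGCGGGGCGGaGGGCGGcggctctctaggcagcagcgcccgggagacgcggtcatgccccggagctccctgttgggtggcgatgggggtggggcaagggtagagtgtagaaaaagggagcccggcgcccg
Mogat1 promoter: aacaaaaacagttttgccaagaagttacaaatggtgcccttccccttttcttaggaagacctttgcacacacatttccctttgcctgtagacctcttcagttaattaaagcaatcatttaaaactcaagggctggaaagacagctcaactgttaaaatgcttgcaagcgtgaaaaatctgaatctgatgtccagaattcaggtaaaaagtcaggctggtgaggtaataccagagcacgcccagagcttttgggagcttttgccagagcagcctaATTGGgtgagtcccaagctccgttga
The 2 windows share little in base composition. GC made up 64.3% of the Gpat3 window, at the percentile 81.1 of 32851 promoters, and 43.7% of the Mogat1 window, at the percentile 19.2, around a median of 52.7%. On both strands, GGGCGG occurred 3 times in Gpat3, with 2 of the matches sharing 1 base, and 0 times in Mogat1, while 35.7% of all promoters held it. CCAAT occurred 1 time in Mogat1, downstream of the start, and 0 times in Gpat3, while 37.4% of promoters held it. Neither window held TATAAA (in 13.6% of promoters), CACGTG (7.15%) or a direct repeat 1 (DR1) element of the kind bound by PPAR receptors (0.0396%).

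Spots well above background made up 51.6% to 60.9% of each array, no gene spot was saturated (0), and the correlation between arrays of a group, across genes, was 0.9737 to 0.9916. The Lcn2 probe was lower in Lcn2-/- than in WT livers, with log2 differences of -4.15 in controls and -3.33 under CCl4 (adjusted p = 0.022 and 0.0413, limma), yet it stayed well above background on all 16 arrays. Whether the probe lies in the deleted part of the gene was not analysed here, so that this remaining signal does not check the labels. The WT control 3 liver had the highest Lcn2 level of all (17.57, against 13.80 to 14.69 in the other WT controls). All controls and WT CCl4 1 were on slide 1, and the other CCl4 livers were on slide 2, so that slide and CCl4 can be told apart in WT by 1 array alone and not at all in Lcn2-/-. Fits with slide as a block, given below, read the slide difference from WT CCl4 1 against the other WT CCl4 livers. Their Lcn2-/- responses rest on that array too and are not slide-adjusted from Lcn2-/- livers. WT arrays other than WT CCl4 1 lay in the first row of their slide and all Lcn2-/- arrays in the second, so that genotype and row can be told apart by that array alone. The hepatocyte markers were present: 9 of 9 tested hepatocyte markers were well above background on all arrays, with a summed log2 signal of 21.39 to 21.61. In limma's test 0 of them were called in the 4 group comparisons, and at an unadjusted p under 0.05 there was 1, between the genotypes under CCl4, where 13.4% of all genes were. With CCl4, 8 of 10 stellate cell and myofibroblast markers rose in WT and 7 of 10 in Lcn2-/- livers. Of 10 neutrophil markers 6 rose in WT and 1 in Lcn2-/- livers. Of 10 macrophage markers 4 rose and 1 fell in WT and 5 rose in Lcn2-/- livers. Of all genes, 7.75% rose and 8.1% fell in WT, and 6.31% rose and 5.28% fell in Lcn2-/- livers. For the neutrophil markers the difference between the genotypes in this response was not called for any (0 of 10, and 0 at an unadjusted p under 0.05), and 8 of 10 had higher means with CCl4 in each genotype, with medians of 2.13 in WT and 1.31 in Lcn2-/- livers. Lcn2-/- control 3 stood apart from the other Lcn2-/- controls, with a summed log2 neutrophil signal of 15.93 against 13.35 and 13.50, as WT control 3 did with 15.47 against 13.51 to 13.97. The part of these cells in the CCl4 responses below was not tested.

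Gpat3, the endoplasmic reticulum GPAT, was the member with the widest spread between genotypes, and its level followed an order of the 4 groups in which no liver of one genotype reached the other. On the log2 scale of the quantile-normalized signal, the WT control livers had Gpat3 levels of 13.78, 13.67, 13.75 and 13.57, and the WT CCl4 livers 13.42, 13.49, 13.57, 13.56 and 13.49. The Lcn2-/- control livers had 9.82, 10.44 and 9.92, and the Lcn2-/- CCl4 livers 11.78, 11.78, 11.87 and 11.61. All 9 WT livers thus sat in a narrow band, the Lcn2-/- controls were the lowest, and the Lcn2-/- CCl4 livers lay between them, overlapping neither. The means were 13.70 ± 0.094 (SD, n = 4) in WT controls, 13.51 ± 0.061 (n = 5) in WT CCl4, 11.76 ± 0.11 (n = 4) in Lcn2-/- CCl4 and 10.06 ± 0.33 (n = 3) in Lcn2-/- controls.

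Given as folds, Gpat3 was 12.4-fold lower in Lcn2-/- than in WT controls and 3.35-fold lower under CCl4. With CCl4 the Lcn2-/- level was 3.25-fold higher, a log2 difference of 1.70 (SE 0.14), while the WT level differed by -0.19 (SE 0.12). The WT control and WT CCl4 livers did not overlap, but the lowest of the former and the highest of the latter both rounded to 13.57, and their means differed 1.14-fold. The difference between the 2 responses, on which Gpat3 was chosen, was 1.89 (SE 0.18). The WT CCl4 1 liver, which shared slide 1 with the controls and the second row with the Lcn2-/- arrays, had 13.42, near the other WT livers and above every Lcn2-/- liver. With WT control 3 and Lcn2-/- control 3 left out, the differences between genotypes were -3.55 in controls and -1.74 under CCl4.

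**Figure D1:**
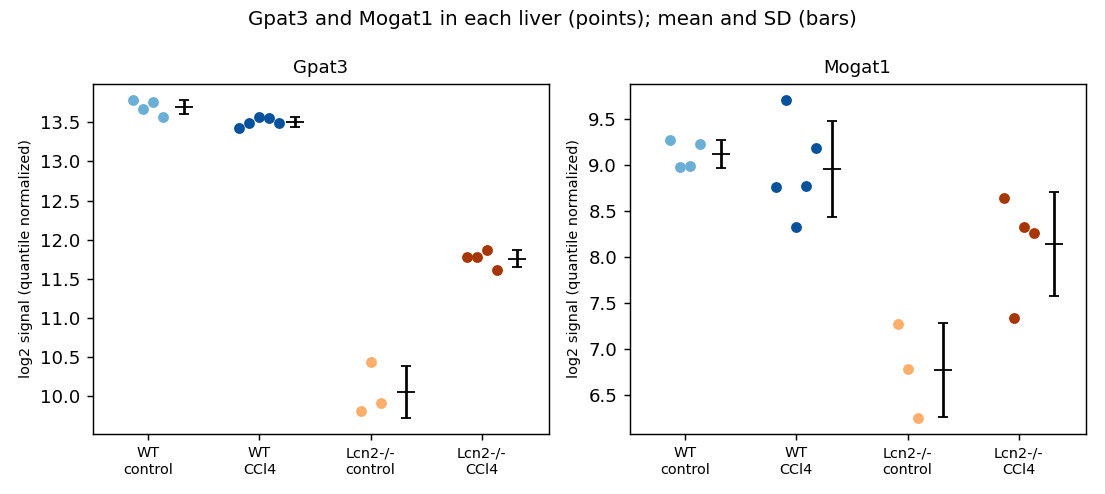
Level of Gpat3 (left) and Mogat1 (right) in each liver, as log2 quantile-normalized array signal on the y axis, by group on the x axis, with points for livers and bars for mean and SD (n = 4, 5, 3 and 4 from left to right). The axes cover different ranges and do not start at 0; in both panels the 3 Lcn2-/- controls sit lowest, at 9.82 to 10.44 for Gpat3 and 6.25 to 7.27 for Mogat1.

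Gpam, the mitochondrial GPAT, had higher means with CCl4 in both genotypes, but no difference passed the test. Its brighter probe (chr19:55143274-55143333, mm9) had levels of 11.26, 11.08, 11.53 and 12.08 in WT controls against 13.82, 12.48, 11.96, 12.68 and 12.13 in WT CCl4. Only the WT CCl4 3 liver fell below a control, the WT control 4 liver. The difference was 1.13 (SE 0.38, 95% interval 0.31 to 1.94, adjusted p = 0.0609, limma). Without WT control 4 it was 1.32 (adjusted p = 0.0495), without WT CCl4 3 it was 1.29 (adjusted p = 0.0435), with array weights it was 1.18 (adjusted p = 0.0135), and with slide as a block it was 2.33 (adjusted p = 0.0206), a value that rests on the WT CCl4 1 liver, which had the highest Gpam level of the 16. Without WT CCl4 1 the difference was 0.82, and over the 16 omissions of 1 array the adjusted p ran from 0.0435 to 0.171, passing in those 2 alone.

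In Lcn2-/- livers, that Gpam probe had levels of 11.46, 10.79 and 12.03 in controls and 12.86, 12.46, 12.01 and 11.57 under CCl4. The groups overlapped, and the difference was 0.80 (95% interval -0.13 to 1.73, adjusted p = 0.263). The genotypes differed by -0.06 in controls (95% interval -0.99 to 0.86) and -0.39 under CCl4 (-1.20 to 0.42). The other Gpam probe (chr19:55144289-55144348) gave 0.60 for the WT response (adjusted p = 0.376) and 0.0035 for the Lcn2-/- response (95% interval -1.03 to 1.03), an interval that overlaps that of the brighter probe. Of the GPAT genes outside the set, Gpat4 differed by 0.35 in WT and 0.36 in Lcn2-/- with CCl4 (adjusted p = 0.0891 and 0.143), and Gpat2 by -0.06 in both.

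Among the AGPATs, Agpat1 rose with CCl4 in WT livers, the call of 1 of the 9 tested members in that comparison, in which 15.9% of all genes were called. At its probe (chr17:34750307-34750366), the WT control livers had levels of 9.72, 9.98, 10.10 and 9.31 and the WT CCl4 livers 10.28, 10.61, 10.55, 10.29 and 10.76. Every CCl4 liver lay above every control, and 17.4% of all genes had no overlap between these groups, in either direction. The difference was 0.72 (SE 0.18), or 1.65-fold, with an adjusted p of 0.0131, and it held without any 1 of the 16 arrays (adjusted p 0.00686 to 0.0435). With slide as a block it was 0.51 (adjusted p = 0.363), and within slide 1, which leaves the WT CCl4 1 liver alone against the controls and takes the spread from the control arrays, it was 0.51 as well (adjusted p = 0.393).

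In Lcn2-/- livers, Agpat1 had levels of 10.21, 10.15 and 9.82 in controls and 10.45, 10.57, 10.52 and 11.02 under CCl4. The groups did not overlap, as was so for 24.8% of all genes in that comparison, and the difference was 0.58 (95% interval 0.15 to 1.01, adjusted p = 0.0814). The 2 responses of Agpat1 differed by -0.14 (95% interval -0.72 to 0.43, adjusted p = 0.9999), so a response particular to WT livers was not shown. Between the genotypes, Agpat1 differed by 0.28 in controls (adjusted p = 0.889) and 0.14 under CCl4 (adjusted p = 0.788).

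Agpat2, whose loss causes lipodystrophy in mice and people, and Agpat3 gave small differences, none of which passed the test, and their groups overlapped in every comparison but that of Agpat3 under CCl4. Agpat2 (chr2:26449107-26449166) lies 5.79 Mb from the Lcn2 probe, on the chromosome of the deleted gene, and its genotypes differed by -0.25 in controls (95% interval -0.71 to 0.22) and -0.12 under CCl4 (-0.53 to 0.29). Its response to CCl4 was 0.26 in WT (adjusted p = 0.4) and 0.39 in Lcn2-/- (adjusted p = 0.285; 0.47 and 0.0485 with array weights). Agpat3 (chr10:77736356-77736415) had levels of 15.47, 15.61, 15.72 and 15.64 in Lcn2-/- CCl4 livers, below the 15.73 to 15.85 of the WT CCl4 livers with no overlap, as was so for 5.67% of all genes. That difference was -0.19 (95% interval -0.40 to 0.01, adjusted p = 0.422).

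**Figure D2:**
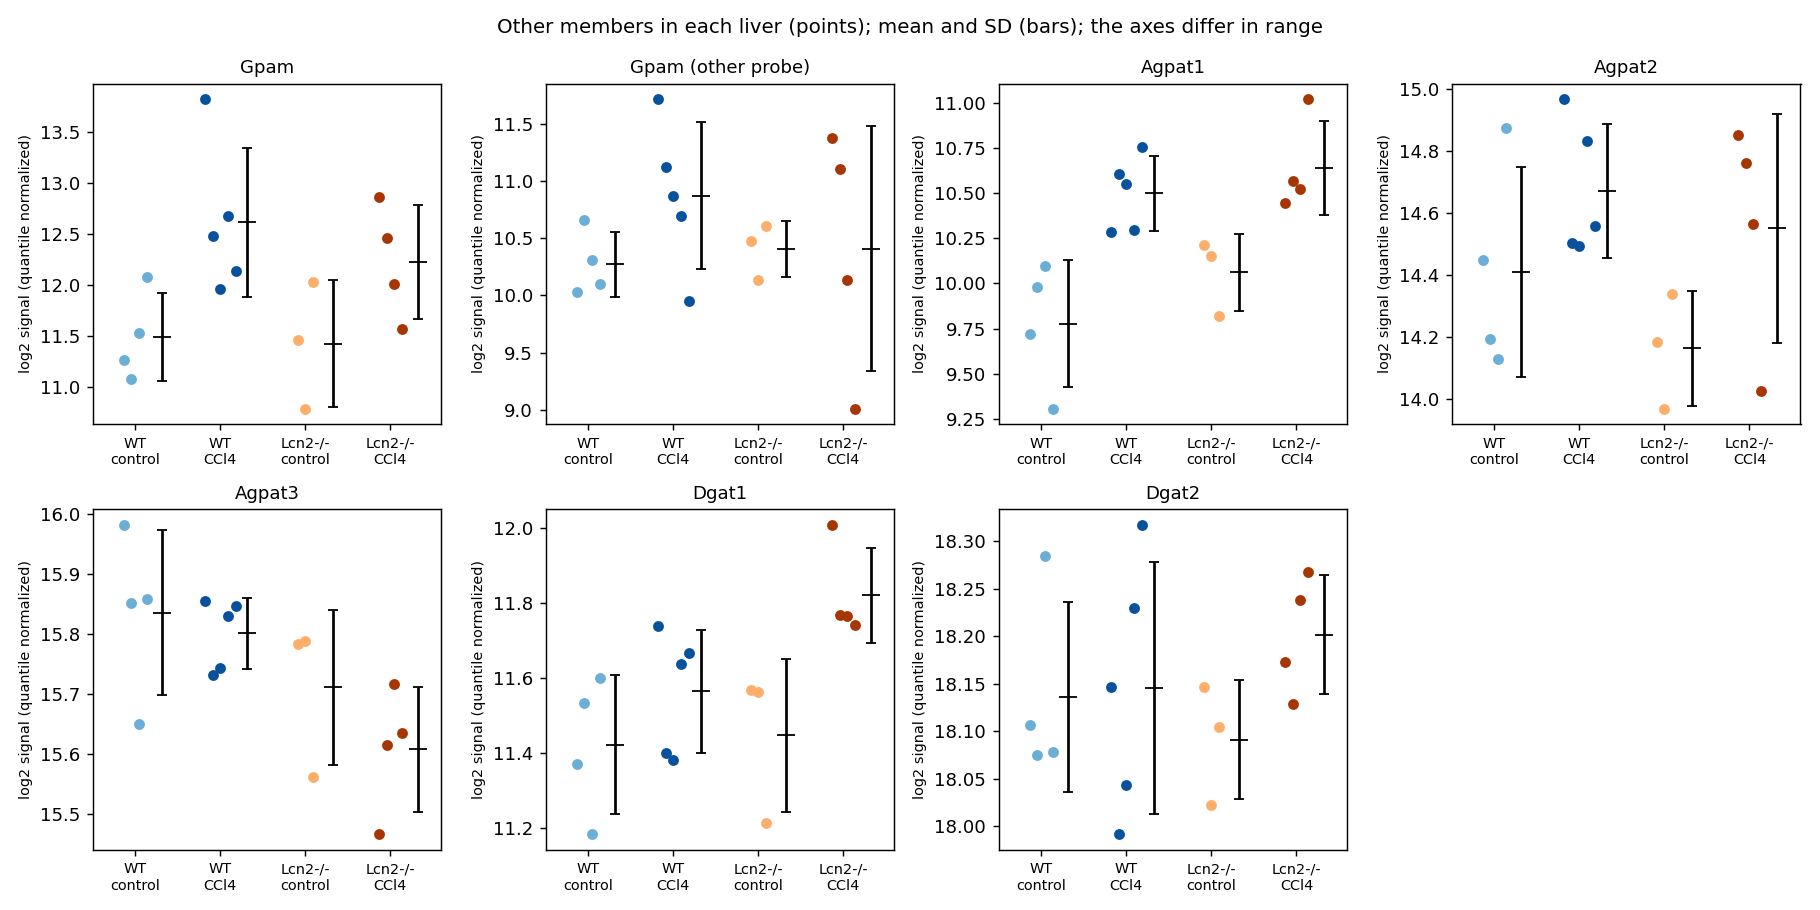
Levels of Gpam (both probes), Agpat1, Agpat2, Agpat3, Dgat1 and Dgat2 in each liver, as log2 quantile-normalized array signal on the y axis, by group on the x axis; points are livers, bars are mean and SD. Each panel has its own axis, which does not start at 0; for Agpat1 the 5 WT CCl4 livers (10.28 to 10.76) lie above the 4 WT controls (9.31 to 10.10).

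Lpin1 and Lpin2 had higher mean levels in Lcn2-/- than in WT livers in both treatments, with Lpin1 the wider of the pair, but no difference passed the test. Lpin1 encodes lipin 1, which besides its enzyme activity acts in the nucleus as a coactivator of fatty acid oxidation genes. At its brighter probe (chr12:16543695-16543754), the WT control livers had levels of 10.89, 11.21, 11.03 and 10.95 and the Lcn2-/- control livers 12.00, 12.82 and 12.44. The groups did not overlap, as was so for 9.73% of all genes in that comparison. The difference was 1.40 (SE 0.37, 95% interval 0.61 to 2.19), or 2.64-fold, with an adjusted p of 0.151.

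Under CCl4, Lpin1 had levels of 12.06, 11.29, 11.21, 10.95 and 11.49 in WT and 13.76, 11.79, 12.78 and 12.32 in Lcn2-/- livers. The groups overlapped through WT CCl4 1 and Lcn2-/- CCl4 2, and the difference was 1.27 (SE 0.32, adjusted p = 0.119). It was 1.56 without Lcn2-/- CCl4 2 (adjusted p = 0.04), and the difference in controls had an adjusted p of 0.0424 without Lcn2-/- CCl4 1, a liver outside that comparison. Over the 16 omissions of 1 array these were the only ones to pass, with a difference down to 0.90 (without Lcn2-/- CCl4 1) and an adjusted p up to 0.255 under CCl4, and an adjusted p up to 0.43 in controls (without Lcn2-/- control 2). With array weights, both passed, at 1.22 in controls (adjusted p = 0.0361) and 1.48 under CCl4 (adjusted p = 0.0405).

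The other Lpin1 probe (chr12:16542515-16542574) was well above background on 15 of 16 arrays. It gave 2.57 in controls (SE 0.62, adjusted p = 0.112) and 1.71 under CCl4 (SE 0.55, adjusted p = 0.215), the same direction as the brighter probe. Its levels were 5.41, 6.14, 6.13 and 6.15 in WT controls and 8.11, 6.93, 7.20, 7.06 and 8.65 in WT CCl4 livers, without overlap, and this response was 1.63 (adjusted p = 0.0593), against 0.38 (adjusted p = 0.476) at the brighter probe. The probes thus had the same direction for the genotype differences and for the WT response, with larger values at the dimmer probe. Whether the probes differed was not tested.

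Lpin2, which encodes the lipin most abundant in liver, had levels of 11.14, 10.89, 11.39 and 11.09 in WT controls and 11.75, 11.45 and 11.47 in Lcn2-/- controls (chr17:71596935-71596994). The groups did not overlap, and the difference was 0.43 (95% interval -0.46 to 1.32, adjusted p = 0.994). Under CCl4 its levels ran from 10.33 to 11.74 in WT and from 10.64 to 12.92 in Lcn2-/-, with a difference of 0.70 (95% interval -0.09 to 1.48, adjusted p = 0.455). The 4 Lcn2-/- CCl4 livers were thus the most spread for both lipins, with the Lcn2-/- CCl4 1 liver the highest of the 16 in each. The third lipin, Lpin3, outside the set, differed between the genotypes by -0.12 in controls (95% interval -0.43 to 0.19) and -0.10 under CCl4 (-0.37 to 0.17).

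**Figure D3:**
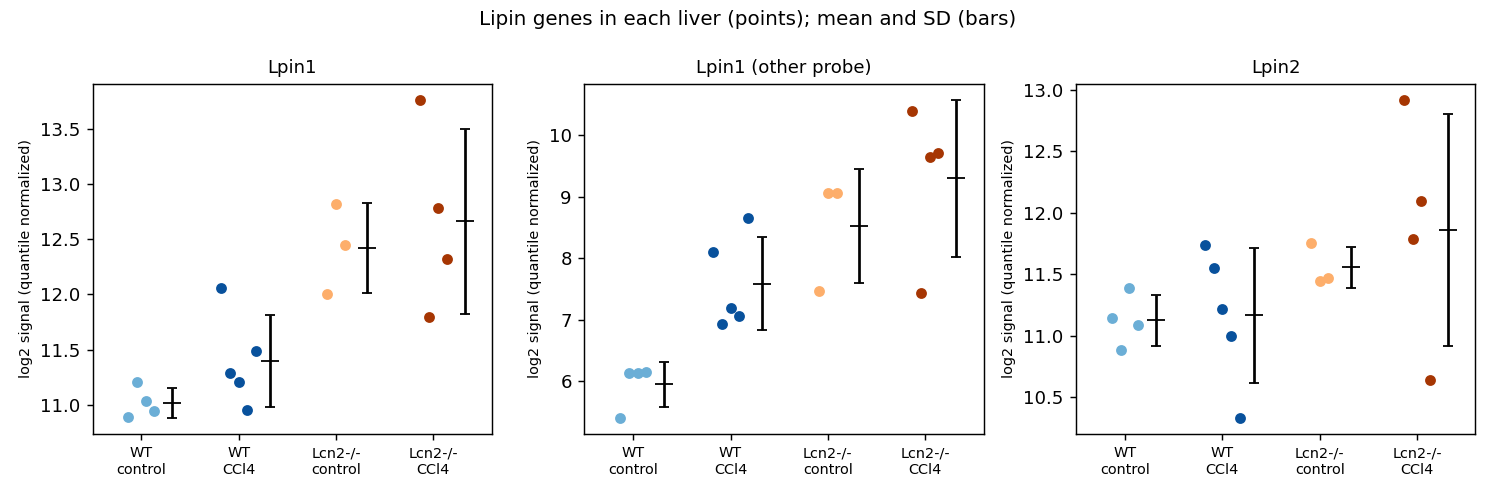
Levels of Lpin1 (brighter probe, then the other probe) and Lpin2 in each liver, as log2 quantile-normalized array signal on the y axis, by group on the x axis; points are livers, bars are mean and SD. Axes differ and do not start at 0; the 3 Lcn2-/- controls (12.00 to 12.82 at the brighter Lpin1 probe) lie above the 4 WT controls (10.89 to 11.21).

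Dgat1 and Dgat2, which both make triacylglycerol but are unrelated in sequence, differed little between groups. Dgat1 (chr15:76333128-76333274) had levels of 11.57, 11.56 and 11.21 in Lcn2-/- controls and 12.01, 11.77, 11.77 and 11.74 in Lcn2-/- CCl4 livers. The groups did not overlap, and the difference was 0.37 (95% interval 0.07 to 0.68, adjusted p = 0.111). The Lcn2-/- CCl4 livers also did not overlap the 5 WT CCl4 livers (11.38 to 11.74), though the closest pair both rounded to 11.74. The means differed by 0.26 (adjusted p = 0.414), and the WT response was 0.14 (95% interval -0.13 to 0.41). Dgat2 (chr7:106302215-106302274), the main DGAT of liver, ran from 17.99 to 18.32 over all 16 livers. Its WT response was 0.01 (95% interval -0.19 to 0.21), its Lcn2-/- response 0.11 (-0.12 to 0.34), and its genotypes differed by -0.04 in controls and 0.06 under CCl4.

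The Dgat2 probe was brighter than 99.3% of tested probes, and its WT response is the 1 value among the 10 genes whose direction turned past the threshold with the scaling of the arrays. With each array scaled to its 75th percentile in place of quantile normalization it was -0.47 (adjusted p = 0.032). That scaling moved the median of all genes in the WT response from -0.03 to -0.16.

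Mogat1, the MGAT, was the only tested member called between the genotypes, with a lower level in Lcn2-/- than in WT livers among the controls. At its probe, the WT control livers had levels of 9.27, 8.98, 8.99 and 9.23 and the Lcn2-/- control livers 7.27, 6.78 and 6.25. Every Lcn2-/- control lay below every WT control, and below every WT CCl4 liver too. The difference was -2.35 (SE 0.34, 95% interval -3.07 to -1.63), a 5.1-fold lower level, with an adjusted p of 0.00302. Mogat1 was the 1 of the 9 tested members called there, in a comparison in which 0.501% of all genes were called. The call held without any 1 of the 16 arrays (-2.60 to -2.09, adjusted p 0.00133 to 0.019), within slide 1 (adjusted p = 0.0196) and with WT control 3 and Lcn2-/- control 3 both left out (-2.14, adjusted p = 0.0362).

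Mogat1 rose with CCl4 in Lcn2-/- livers, where slide and CCl4 cannot be told apart. The Lcn2-/- CCl4 livers had levels of 8.64, 7.34, 8.32 and 8.26, all above the Lcn2-/- controls, though Lcn2-/- CCl4 2 stood only just above the highest of them. The difference was 1.37 (SE 0.34), or 2.59-fold, with an adjusted p of 0.0174, and Mogat1 was the 1 of the 9 tested members called in a comparison in which 11.6% of all genes were called. The call was lost without Lcn2-/- control 2 (1.38, adjusted p = 0.059), without Lcn2-/- control 3 (1.12, adjusted p = 0.069), with WT control 3 and Lcn2-/- control 3 both left out (1.12, adjusted p = 0.0743) and with slide as a block (1.14, adjusted p = 0.403). The blocked value takes its slide difference from the WT livers, through WT CCl4 1 alone.

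In WT livers, Mogat1 had levels of 8.76, 9.71, 8.32, 8.77 and 9.18 with CCl4, spread on both sides of the WT controls, and the difference was -0.17 (95% interval -0.80 to 0.47, adjusted p = 0.755). The Lcn2-/- response exceeded the WT response by 1.54 (SE 0.45, 95% interval 0.58 to 2.50). This interaction had a p of 0.004 before adjustment and an adjusted p of 0.9999, so the difference between the responses did not pass across all probes. Under CCl4 the genotypes differed by -0.81 (95% interval -1.45 to -0.18, adjusted p = 0.283), and the groups overlapped.

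The Mogat1 levels ran with those of Gpat3 over the 16 livers, with a Pearson r of 0.887, the highest of the other 9 members. The next were Agpat3 (0.488) and Agpat2 (0.381), and the lowest was Lpin1 (-0.697). These correlations are descriptions over livers that share 4 groups, arrays and normalization. Both Gpat3 and Mogat1 are known from adipocytes, and the adipocyte markers were set beside them. Of 10, 5 were tested (Fabp4, Cfd, Retn, Car3 and Cidea), whereas the defining markers Adipoq, Plin1 and Lep, with Slc36a2 and Ucp1, did not pass the filter on dim probes. All 5 had lower means in Lcn2-/- than in WT controls, with a median difference of -0.64, 0 called by limma and 2 at an unadjusted p under 0.05, beside 8.18% of all genes. Their summed log2 signal was 18.43 to 18.61 in WT controls, 18.31 to 18.49 in Lcn2-/- controls, 18.17 to 18.57 in WT CCl4 and 18.18 to 18.57 in Lcn2-/- CCl4, ranges that overlap but are carried by Car3, the brightest of them. Car3 had group means of 18.37 to 18.53, near the 18.46 to 18.61 of the hepatocyte marker Ttr. Neither its level nor this sum was therefore shown to come from adipocytes. Fabp4, which macrophages also express, had 12.44 to 13.27 in WT controls and 11.99 to 12.18 in Lcn2-/- controls, without overlap (adjusted p = 0.174). With CCl4 it rose in both genotypes, to 13.52 to 13.86 in WT and 13.27 to 13.53 in Lcn2-/- livers, while Cfd was well above background in 4 of 4 WT controls and 0 of 5 WT CCl4 livers. The part of these markers in the Gpat3 and Mogat1 values was not tested.

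**Figure D4:**
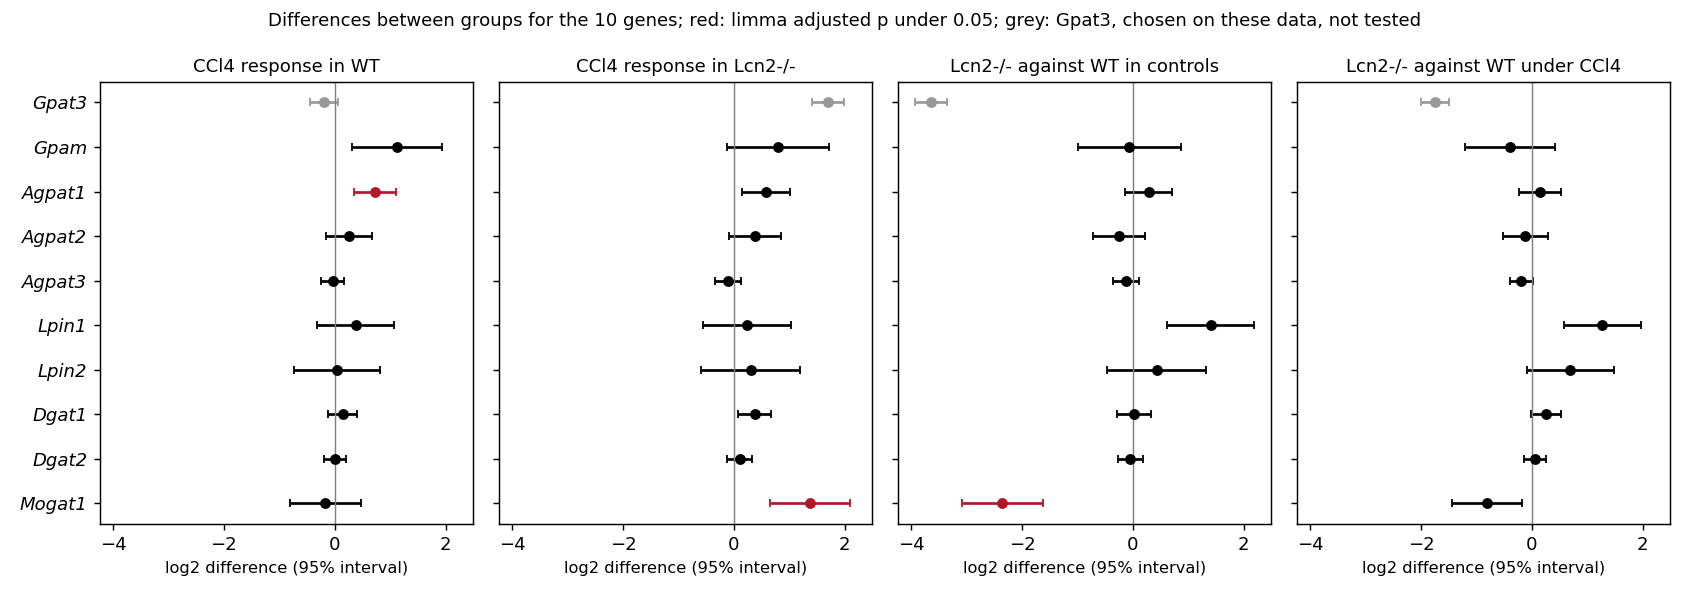
Differences between groups for the brightest probe of each of the 10 genes, in 4 panels, with the log2 difference and its 95% interval on the x axis and genes on the y axis. Red marks an adjusted p under 0.05 and grey marks Gpat3, not tested; the red points are Agpat1 at 0.72 for the WT response and Mogat1 at 1.37 for the Lcn2-/- response and -2.35 in controls.

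Counted over the set, 1 of the 9 genes other than Gpat3 was called in each CCl4 response and 1 between the genotypes in controls. In the comparison of the genotypes under CCl4, in which 0.538% of all genes were called, 0 of the 9 passed limma's adjusted test and 2 had an unadjusted p under 0.05, Lpin1 and Mogat1, as did 13.4% of all genes. In controls the same 2 genes had an unadjusted p under 0.05, beside 8.18% of all genes. For the interaction, 0 of the 9 passed and 1, Mogat1, had an unadjusted p under 0.05, beside 3.19% of all genes. The groups did not overlap for 1 of the 9 in the WT response, 3 in the Lcn2-/- response, 2 under CCl4 and 3 in controls, beside the shares of all genes given above. The median difference over all 10 genes was 0.09 for the WT response, 0.38 for the Lcn2-/- response, -0.05 for the genotypes in controls and -0.03 under CCl4. Over all genes tested these medians were -0.03, -0.02, -0.01 and -0.01.

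The rest of the glycerolipid pathway was followed through 47 further genes, from acyl-CoA synthetases to lipid droplet coats and lipases, of which 46 were tested and Cds1 was not. With CCl4 in WT livers, 5 rose and 1 fell, in a comparison in which 7.75% of all genes rose and 8.1% fell. In Lcn2-/- livers 7 rose and 1 fell, where 6.31% of all genes rose and 5.28% fell. These 8 calls were 2 to 5 without any 1 of the Lcn2-/- controls, WT CCl4 2 or 4 or Lcn2-/- CCl4 1, 3 or 4, with the 2 without Lcn2-/- control 1, and 11 without Lcn2-/- CCl4 2. Over single omissions, all genes called in that response ran from 1553 to 2989, beside 2822 with all arrays. The 8 calls were 3 with 75th percentile scaling and 1 with slide as a block. The share of all genes is not given for those 2 settings, so a change particular to these genes was not shown. Between the genotypes 1 fell in controls, where 0.283% of all genes fell, and 0 were called under CCl4, where 0.538% of all genes were. For the interaction 0 were called, beside 0.0411% of all genes. At an unadjusted p under 0.05 there were 8 in controls, 6 under CCl4 and 2 for the interaction. The shares of all genes at that limit were 8.18%, 13.4% and 3.19%. The median difference of the 46 was 0.06 and 0.21 for the WT and Lcn2-/- responses, -0.13 and -0.02 for the genotypes in controls and under CCl4.

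Fitm1, which encodes a protein that helps package triacylglycerol into droplets and is best known from skeletal muscle, fell in both genotypes. Its levels had a mean of 11.54 ± 0.40 (SD, n = 4) in WT controls against 5.79 to 7.96 in WT CCl4 livers, and 11.08, 10.61 and 10.82 in Lcn2-/- controls against 5.97 to 7.33 in Lcn2-/- CCl4 livers. The groups were far apart, with differences of -4.41 (SE 0.39, adjusted p = 8.6e-06), a 21.2-fold lower level, and -4.38 (SE 0.44, adjusted p = 3.8e-05). Of 5 tested skeletal muscle markers, 1 fell with CCl4 in WT, where 8.1% of all genes fell. In Lcn2-/- livers 1 rose, where 6.31% of all genes rose. The summed log2 signal of these markers was 9.86 to 10.26 in WT controls and 9.81 to 10.01 in WT CCl4 livers. Their part in the Fitm1 values was not tested. Agpat4, a further AGPAT, rose by 0.90 in WT (SE 0.19, adjusted p = 0.00583) and 0.89 in Lcn2-/- livers (SE 0.22, adjusted p = 0.0187), and the latter call was lost without Lcn2-/- control 1 (0.92, adjusted p = 0.0523) or 2 (0.84, adjusted p = 0.0779). With slide as a block these were 0.69 (adjusted p = 0.26) and 0.62 (adjusted p = 0.477), and within slide 1 the WT value was 0.69 (adjusted p = 0.318).

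Pnpla3, a lipid droplet protein linked to fatty liver in people, rose in WT livers. Its levels were 5.56, 5.52, 7.05 and 5.72 in WT controls and 11.22, 9.82, 9.66, 10.12 and 10.39 in WT CCl4 livers, well apart. The difference was 4.28 (SE 0.65), or 19.4-fold, with an adjusted p of 0.000479, and the other Pnpla3 probe gave 2.86 (adjusted p = 0.0166). Within slide 1, with the WT CCl4 1 liver alone and the spread of the controls, it was 5.26 (adjusted p = 0.0944). In Lcn2-/- livers the levels were 6.55, 5.04 and 9.04 in controls and 7.41, 8.34, 8.22 and 9.35 under CCl4, overlapping through Lcn2-/- control 3, and the difference was 1.45 (SE 0.74, adjusted p = 0.234). The interaction was -2.83 (95% interval -4.94 to -0.72, adjusted p = 0.9999), so that the responses were not shown to differ.

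Of the enzymes that supply and consume the intermediates, the acyl-CoA synthetase Acsl3 rose by 0.75 in WT livers (SE 0.22, adjusted p = 0.0368), a call lost without WT control 1, 2 or 4 or WT CCl4 1 or 5 (adjusted p up to 0.122). Within slide 1, where WT CCl4 is 1 liver and the spread that of the controls, the Acsl3 difference was 1.41 (adjusted p = 0.0677), with the control livers 3 of both genotypes left out it was 0.78 (adjusted p = 0.0504), and with no filter on dim probes the adjusted p was 0.059. Acsl4 rose there as well (0.47, adjusted p = 0.0155), a call lost without WT control 2 (adjusted p = 0.0582), with 75th percentile scaling (0.35, adjusted p = 0.101) and within slide 1 (0.77, adjusted p = 0.0864). Dgkz, a diacylglycerol kinase, rose by 0.52 (adjusted p = 0.00995), a call lost with 75th percentile scaling (0.41, adjusted p = 0.0789), with slide as a block (0.64, adjusted p = 0.105) and within slide 1 (adjusted p = 0.185). In Lcn2-/- livers Dgkz rose by 0.69 (SE 0.14, adjusted p = 0.00546), and the droplet coat gene Plin5 by 0.76 (SE 0.22, adjusted p = 0.0387). The Plin5 call was lost without Lcn2-/- control 1 or 3, WT CCl4 4 or Lcn2-/- CCl4 1, 3 or 4 (adjusted p up to 0.123), with 75th percentile scaling (0.67, adjusted p = 0.118), with no filter on dim probes (adjusted p = 0.0566) and with the control livers 3 left out (0.62, adjusted p = 0.0955). With slide as a block, the Dgkz and Plin5 differences were 0.83 (adjusted p = 0.128) and 1.07 (adjusted p = 0.209). The remaining Lcn2-/- calls, all higher under CCl4, were the lipase Mgll, the kinase Dgkd, and Gk and Gpd1, which supply glycerol-3-phosphate. All 4 calls were lost with 75th percentile scaling, with slide as a block (adjusted p 0.284 to 0.841) and with the control livers 3 left out. Gk and Mgll also lost theirs with no filter on dim probes (adjusted p = 0.0552 and 0.0642), and Dgkd in the authors' values (0.43, adjusted p = 0.0759). The 4 were also lost on leaving out single arrays, Gk for all but WT control 3 and Lcn2-/- CCl4 2, and Mgll for all but WT CCl4 1 and 5 and Lcn2-/- CCl4 2. The other 3 probes of Mgll were not called in Lcn2-/- livers, with differences of 0.0040, 0.52 and 0.22 (adjusted p = 0.998, 0.192 and 0.553). Dgkd lost its call without any 1 of the Lcn2-/- controls or Lcn2-/- CCl4 1, 3 or 4, and Gpd1 without these and without WT CCl4 2 or 4.

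Plin2, the main droplet coat gene of hepatocytes, fell in Lcn2-/- controls, the single call of the 46 between the genotypes. Its levels were 17.29, 17.11, 16.80 and 17.51 in WT controls and 16.44, 16.36 and 16.06 in Lcn2-/- controls, without overlap. The difference was -0.89 (SE 0.17), a 1.85-fold lower level, with an adjusted p of 0.0332. With the replicate number as a block, which the control arrays bear out as a pairing, it was -0.85 (adjusted p = 0.132), within slide 1 alone it was -0.89 (adjusted p = 0.209), and with 75th percentile scaling it was -0.84 (adjusted p = 0.117). The call was also lost without WT control 1, 2 or 4, without any 1 of the Lcn2-/- controls and without Lcn2-/- CCl4 3 (adjusted p up to 0.124 in these).

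The surroundings of Gpat3 on chromosome 5 were examined for genes that moved with it, over 27 tested genes with a probe within 2000000 bases of the Gpat3 probe. One of them, 4930458D05Rik, passed the filter on dim probes through a single group and is described apart, without a test. Of the other 26, 0 were called between the genotypes in controls and 0 under CCl4 (limma), beside 0.501% and 0.538% of all genes. At an unadjusted p under 0.05 there were 3 in controls and 3 under CCl4, beside 8.18% and 13.4% of all genes. In the CCl4 responses, 1 of the 26 was called in WT, higher, and 3 in Lcn2-/- livers, all lower. The shares of all genes called there were 15.9% and 11.6%. 4930458D05Rik is a transcript named only by its clone, whose probe (chr5:101269824-101269883) lies 58.2 kb before that of Gpat3. It was well above background in the Lcn2-/- CCl4 livers alone, at 5.57, 6.10, 5.82 and 6.77, and not in any of the other 12 livers, which ran from 2.87 to 4.44. The level in Lcn2-/- CCl4 was at least 2.46-fold higher than in WT CCl4 livers, where the bound takes the dimmest signals that were well above background. The bound holds for the quantile-normalized signal alone, and after normexp correction of the background, which adds an offset, the log2 difference was 0.89, smaller than this bound. Under CCl4 the direction is thus opposite to that of Gpat3, which was lower in Lcn2-/- livers. Within Lcn2-/- livers it was the same as for Gpat3, with a level at least 1.46-fold higher under CCl4 than in controls.

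**Figure D5:**
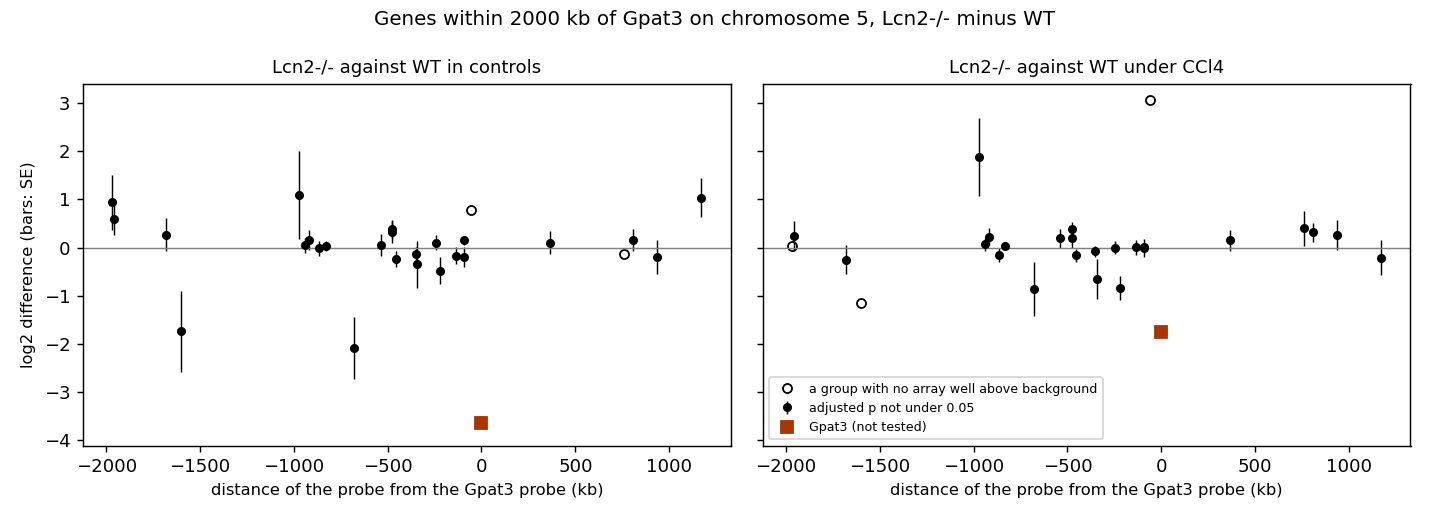
Difference between Lcn2-/- and WT livers (log2, y axis, bars are SE) for genes around Gpat3, by distance of their probe from the Gpat3 probe in kb (x axis), in controls and under CCl4. Gpat3 at 0 kb has -3.64 and -1.74, and no neighbour drawn as a filled point was called (0). Open points are fitted values, drawn without an SE, in which a group had no array well above background, so that their height is no measured fold.

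Over the 16 livers and 24357 genes, the levels most like those of Gpat3 belonged to Adamts13 (Pearson r = 0.953), Ccdc173 (0.942), Cx3cr1 (0.929), LOC100048875 (0.928) and Ociad1 (0.926). The probes of Cx3cr1 and LOC100048875 overlap on chromosome 9, so that these are 1 measurement read by 2 probes. Adamts13 and Ccdc173 lie on chromosome 2, the chromosome of Lcn2, and Ociad1 lies on chromosome 5, that of Gpat3. The levels least like it belonged to Zfp33b (-0.947), Mtmr7 (-0.924) and an intergenic probe of chromosome 3 (-0.92). Zfp33b lies on chromosome 5 as well, 3.68 Mb from the Gpat3 probe and thus outside the window of neighbours above, whereas Ociad1 lies 27.6 Mb from it. Zfp33b was not well above background in any WT liver (2.89 to 2.99) and ran from 7.22 to 8.55 in Lcn2-/- livers, at least 8.15-fold higher in controls and at least 6.11-fold higher under CCl4. As for 4930458D05Rik, these bounds and those for Adamts13 and Ccdc173 below hold for the quantile-normalized signal alone. These likenesses rest on livers in 4 groups and carry no test.

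Side by side, Lcn2-/- minus WT was -3.64 for Gpat3 in controls and -1.74 under CCl4. For Cx3cr1, the fractalkine receptor of monocytes and macrophages, these were -2.18 and -1.64, and for Ociad1 -0.67 and -0.59. Adamts13, which encodes the protease that cuts von Willebrand factor and is made in stellate cells, was not well above background in any Lcn2-/- control, where it was at least 11.1-fold lower than in WT, and differed by -2.67 under CCl4. Ccdc173 was not well above background in any Lcn2-/- liver, so that its level was at least 1.9-fold lower among controls and at least 2.87-fold lower with CCl4. With CCl4, the Lcn2-/- livers differed from their controls by 1.14 for Cx3cr1 and 0.13 for Ociad1, against 1.70 for Gpat3, and Adamts13 was at least 1.79-fold higher. In the same genotype comparisons, 2 of the 10 macrophage markers fell in controls, Gpnmb and Cx3cr1, beside 0.283% of all genes. Under CCl4, 1 fell, Cx3cr1, beside 0.275% of all genes. Cx3cr1 was named above for its likeness to Gpat3, so that its part in these counts is a description only. The stellate cell and myofibroblast markers had a summed log2 signal of 14.32 to 16.24 in WT controls and 13.82 to 14.07 in Lcn2-/- controls, without overlap. That sum weighs the brightest markers most. The mean of their log2 levels did overlap, at 8.99 to 10.64 in WT controls and 9.04 to 9.60 in Lcn2-/- controls. Of these markers, 8 of 10 had lower means in Lcn2-/- controls (median -0.63). By limma 0 were called and 3 had an unadjusted p under 0.05, beside 8.18% of all genes. Under CCl4, 9 of 10 had lower means in Lcn2-/- livers (median -0.67), with 0 called and 2 at that limit, beside 13.4% of all genes. The part of macrophages and stellate cells in the Gpat3 values was not tested.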

How the data were processed

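Whole-liver RNA was measured in 16 samples on 1-colour Agilent mouse arrays with probes placed on mm9. Per the file headers, the authors' scanner software, Agilent Feature Extraction 10.7.3.1, subtracted background and gave each spot a processed intensity, which was the value used. The deposited value table holds log2 values that the authors made by quantile normalization (99.86% of values lie within 0.05 of log2 of median minus background signal, normalized in that way), and it served as an alternative. Its column medians were 6.53 to 6.55, and each column correlated with its own array at 0.998 or more. The number of per-sample columns without a sample was 0.

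Of 62976 spots, 3671 controls were left out. Spots of 1 probe were averaged over 59305 gene spots and 55681 probes, of which 121 without an unmarked spot on some array were dropped. After log2 and quantile normalization over 16 arrays, 33014 probes passed the filter, a signal well above background on 3 or more arrays, and each of the 24357 genes tested was read from its brightest probe. Accessions of 46.8% of gene probes and 61% of genes tested matched RefSeq's GRCm38.p6 table, and other genes kept the array's names.

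limma 3.58.1 in R 4.3.3 (with data.table, version 1.17.8) fitted 1 model over the 4 groups, with Benjamini-Hochberg adjustment over all 33014 probes and calls at an adjusted p under 0.05, two-sided. All adjusted p-values are limma's. The code was tested on simulated data. Where a whole group was not well above background, a bound replaced the fold, and it holds for the quantile-normalized signal alone.

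All 10 genes are given with every probe. For the further pathway genes, up to 4 called genes with the largest absolute difference per comparison are given with values. Other calls are given with values in the WT response, and are named with the settings that lost them in the Lcn2-/- response. Neighbours are named where called between genotypes, and the 5 most and 3 least alike genes by Pearson r. The genes and lists were chosen with earlier results of these data known.

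Replicate numbers are shared across groups by label. In controls, same-numbered arrays deviated together (r = 0.201, 0.375 and 0.516, 3 of 3 above 0.1), so that the numbers were read as a pairing there. For other group pairs they were not. Alternatives were scaling to the 75th percentile, normexp with an offset of 50, the authors' values, no filter or a filter on all 16 arrays, a single probe per gene before the fit, slide as a block or within slides, the replicate block, array weights and leaving out each array. Leaving out WT control 3 and Lcn2-/- control 3 together was added after seeing the data. The number of arrays limits the precision.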

Additional observations from a re-analysis of the deposited data

Results flagged for a closer look

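Among 36 sets of 4 or more livers (a probe of the 10 genes in a group), 3 had an end value far from the others by Dixon's ratio, the gap to the nearest value over the whole range. Chance gives about 1 in 20 such sets. At the dimmer Lpin1 probe, WT control 1 was at 5.41 against 6.13 to 6.15 in the other WT controls (ratio 0.9705), and it was the 1 array on which that probe was not well above background. For Dgat1, Lcn2-/- CCl4 1 was at 12.01 against 11.74 to 11.77 (ratio 0.8955). For Dgat2, WT control 3, the liver with the highest Lcn2 level, was at 18.28 against 18.08 to 18.11 (ratio 0.8533). The response of Gpat3 to CCl4 was higher in Lcn2-/- than in WT livers by 1.89048 on the log2 scale, the value by which the genes were chosen.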

How the results depend on the processing

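Counts of called genes, Gpat3 included although it was chosen by its interaction and supports nothing here, stood at 1 member in the WT response, 2 in the Lcn2-/- response, 1 between genotypes under CCl4, 2 in controls and 1 for the interaction, with 6, 8, 0, 1 and 0 of the further pathway genes and 1 (under CCl4) and 0 (controls) neighbours. That neighbour, 4930458D05Rik, passed the filter through the Lcn2-/- CCl4 livers alone, so that its calls support nothing. Scaling to the 75th percentile gave 2 members in the WT response, where Dgat2 turned from 0.01 to -0.466443, and 3 pathway genes in the Lcn2-/- response and 0 in controls. That scaling moved the median of all genes to -0.16 in the WT and -0.14 in the Lcn2-/- response. Without the filter, 5 pathway genes were called in the Lcn2-/- response. With the filter on all arrays, 0 neighbours were called, because the one called was then not tested. With slide as a block, the Lcn2-/- response held 1 member and 1 pathway gene. Within slide 1, the WT response held 0 members and 1 pathway gene, and controls 0 pathway genes, with fewer arrays. Array weights gave 2 members and 11 pathway genes in the WT response, 3 members (Agpat2 added, adjusted p = 0.0485) and 14 pathway genes in the Lcn2-/- response, 2 members and 1 pathway gene under CCl4, and 3 members (Lpin1 added, adjusted p = 0.0361), 6 pathway genes and 1 neighbour in controls. Leaving out WT control 3 and Lcn2-/- control 3 gave 1 member and 5 pathway genes in the Lcn2-/- response and 2 neighbours under CCl4. Where no cause is given, the cause was not tested. The counts under settings other than single omissions, here and below, lack the share of all genes called beside them. A change in them is thus not shown to be particular to these genes.

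With the replicate block, the WT response held 0 members (Agpat1 at 0.66, adjusted p = 0.0535, limma) and lost Acsl3 (0.68, adjusted p = 0.0632), the Lcn2-/- response held 4 pathway genes, having lost Gpd1, Gk, Dgkd and Mgll (adjusted p 0.0548 to 0.0731), and controls 0 pathway genes, while Mogat1 kept its call in controls (-2.34, adjusted p = 0.0237). Over all groups, 7 of 16 arrays correlated best with their own number.

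The counts under CCl4 and for the interaction are Gpat3 alone. For the other 9 members the counts were 1, 1, 0, 1 and 0, and over the alternatives other than single omissions they ran from 0 to 2 in each CCl4 response, 0 to 1 under CCl4, 1 to 2 in controls and 0 to 0 for the interaction. Without each array in turn they ran from 1 to 2 in the WT response, 0 to 1 in the Lcn2-/- response and under CCl4, 1 to 2 in controls and 0 to 0 for the interaction.

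With Gpat3 counted and without each array in turn, the members called were 1 to 2 in the WT response, the Lcn2-/- response and under CCl4, 2 to 3 in controls and 1 for the interaction. Pathway counts ran from 4 to 7, 2 to 11, 0 to 1, 0 to 1 and 0 to 0, and neighbour counts from 1 to 2 under CCl4 and 0 to 0 in controls. The widest of these, 2 to 11, came without Lcn2-/- control 1 and Lcn2-/- CCl4 2. Over the same omissions, all genes called ran from 2338 to 4832 in the WT response and 1553 to 2989 in the Lcn2-/- response. They ran from 67 to 157 under CCl4, 90 to 138 in controls and 7 to 14 for the interaction. Within-slide values could not be had for the Lcn2-/- response and the interaction, since each Lcn2-/- group lay on 1 slide.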
